A study of Mus musculus with 6 samples.

Results

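Homer and Shank scaffold genes encode the layer of the postsynaptic density that lies beneath the receptors of excitatory synapses. Homer proteins bind proline-rich motifs of group 1 metabotropic glutamate receptors, of inositol trisphosphate receptors and of Shank. Their long forms assemble through a coiled coil, while short forms that lack it, such as the activity-induced Homer1a, uncouple these partners. Shank proteins carry ankyrin repeats, SH3, PDZ, proline-rich and SAM regions and link Homer to the Dlgap and PSD-95 scaffolds, and internal promoters give Shank forms without the ankyrin repeats. The members were the 6 genes Homer1, Homer2, Homer3, Shank1, Shank2 and Shank3, found by gene ID among 15939 genes of the series.

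Nucleus accumbens tissue, a ventral striatal region involved in reward, was sequenced as total RNA from C57BL/6N mice trained in conditioned place preference. One group was given morphine (libraries morphine 4, 5 and 6) and the other saline injections (libraries saline 1, 2 and 3), and no sex, age, dose or interval is in the labels. The design text gives 6 mice per group for 3 samples, without saying which mice went into which sample, so the p-values measure the spread between samples. Whole tissue mixes cell types, and more cells of a type cannot be told apart from a change within those cells.

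Each library came as a catalogue of alternative first exons, last exons, skipped exons, retained introns and alternative exon ends found in its assembled transcripts. What was compared is how many different events a library lists for a gene. An event that is not listed was not recorded in that catalogue, and its RNA may still have been present. Event numbers are not expression levels, and read depth is unknown. The morphine catalogues held 56416 to 57981 distinct events and the saline catalogues 54641 to 58007. All 11 marker genes of striatal projection neurons were listed in all 6 libraries, as were all 5 of astrocytes, of oligodendrocytes, of microglia and of cortical glutamatergic neurons, and all 4 of choroid plexus and ependyma. Of the 4 endothelial markers Cldn5 was listed in 0 libraries. The choroid plexus and ependyma markers summed to 14, 16 and 17 events in morphine and 18, 25 and 20 in saline, without overlap, and their part in the results below was not tested.

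Across the 6 genes the clearest difference between the groups was in Shank2, which had more catalogued events in every morphine library than in any saline library. The 5 other genes overlapped between the groups, and Homer2 had the same events in all 6 libraries. Limma, fitted to log2(events + 0.5) over 15040 genes, called 0 of the 6 at an adjusted p under 0.05, where it called 0.638% of all tested genes. At an unadjusted limma p under 0.05 there was 1 of the 6, against 480 of the 15040 genes. Groups did not overlap for 1 of the 6 genes and for 3.07% of all tested genes (1.64% with morphine above and 1.43% with saline above). The tested genes include many whose groups could hardly separate, since 4731 of them had a log2 difference of 0.

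Together the 6 genes had 101 distinct events, of which 59 (58.4%) matched annotated exons and 16 (15.8%) were in all 6 libraries. Another 45 (44.6%) were in a single library. Over the whole series 63.6% of events were annotated and 20.9% were in all 6 libraries. No event of the 6 genes was in all 3 morphine and 0 saline libraries, a pattern of 0.321% of all events, and none was in all 3 saline and 0 morphine libraries, a pattern of 0.345%.

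**Figure D1:**
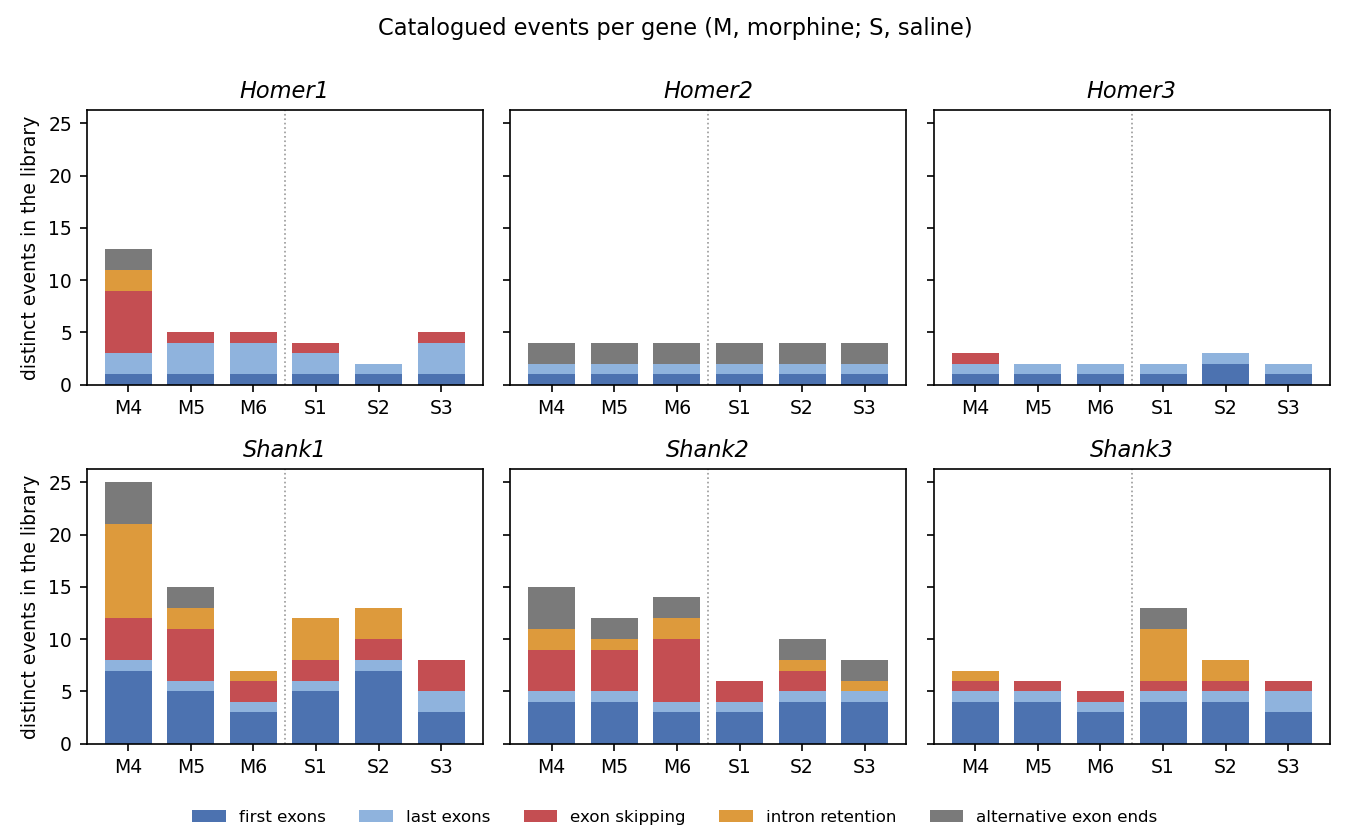
Distinct catalogued events (y axis, number per library) of each gene in morphine libraries M4, M5 and M6 and saline libraries S1, S2 and S3 (x axis), with a colour for each event class. The Shank2 bars reach 12 to 15 in morphine and 6 to 10 in saline, Homer2 stands at 4 in every library, and the tallest Homer1 and Shank1 bars are those of morphine 4.

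Homer1 lies at chr13:93299635-93405129 on the plus strand of GRCm38, and the annotation gives it 12 transcripts. Its total was 13, 5 and 5 events in morphine 4, 5 and 6 and 4, 2 and 5 in saline 1, 2 and 3. Morphine 4 stood apart and the groups overlapped at 5. The log2 difference was 0.91 (limma SE 0.52, adjusted p = 0.905), and the exact two-sided permutation p was 0.3. Without morphine 4 the log2 difference was 0.48.

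The question for Homer1 is which 3′ end is used, since the short ends stop translation before the coiled coil. The annotated coding forms part after the fifth exon, which ends at position 93356079. Their tails are shown because they identify the forms, with the last 15 bases of the shared exon in lower case and the form's own coding bases and stop codon in capitals:
Homer1a form: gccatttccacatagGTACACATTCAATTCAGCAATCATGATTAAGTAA
short form ending from 93366243: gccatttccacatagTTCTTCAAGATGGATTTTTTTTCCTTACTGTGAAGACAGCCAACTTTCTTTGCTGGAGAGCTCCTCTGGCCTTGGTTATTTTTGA
short form ending from 93386345: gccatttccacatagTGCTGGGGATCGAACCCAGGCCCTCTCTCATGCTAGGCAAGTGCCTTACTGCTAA

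These forms encode 186, 203 and 193 codons, against 354 and 366 codons in the main long forms. The last exon of the long forms, from position 93402041, was listed in all 6 libraries. The short last exon from 93386345 was listed in all 3 morphine libraries and in saline 1 and 3. The short last exon from 93366243 was listed in morphine 5 and 6 and in saline 3. Both short ends were thus present in each group, and saline 2 listed the end from 93402041 alone. That splice position is also the last exon of 4 annotated transcripts of 180 to 224 codons, so listing it does not identify a long coding form. The last exon of the Homer1a form, which runs on from the fifth exon into the intron, was listed as a last exon in 0 libraries. Its bases, 93355940 to 93360462, lay within a longer exon with a retained intron, 93355940 to 93386380, that morphine 4 alone listed. All last exons together came to 2, 3 and 3 in morphine and 2, 1 and 3 in saline (exact two-sided permutation p = 0.7).

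A 36-base exon at chr13:93386345-93386380 adds the 12 codons by which Homer1c exceeds Homer1b, both of them long forms. It is printed because the catalogue lists it as skipped in some transcripts, with the exon in capitals and 15 bases of each neighbouring exon in lower case:
Homer1 36-base exon: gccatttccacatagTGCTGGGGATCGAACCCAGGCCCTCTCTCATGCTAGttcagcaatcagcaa

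Its single skipping event was in all 3 morphine libraries and in saline 1 and 3. Those are the same 5 libraries that listed the short end from 93386345, and the exon and that end begin at the same splice position, as their shared capitals show. The short last exon runs on past the 3′ end of the 36-base exon.

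Morphine 4 carried every other skipping, retention and alternative-end event of Homer1. It listed 6 skipping events, against 1 and 1 in morphine 5 and 6 and 1, 0 and 1 in saline. Intron retention was 2 events in morphine 4 and 0 in the 5 other libraries, and alternative exon ends were 2 and 0 in the same way. The retained stretch joined the fifth exon and the 36-base exon into 1 exon, at 93355940 to 93386380. The 5′ end did not vary, since the first exon ending at 93305302 was in all 6 libraries and the other annotated first exons, ending at 93299740 and 93308360, were in 0.

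Homer2, whose long protein binds the same ligands, lies at chr7:81600481-81707527 on the minus strand. It had 4 events in each morphine library and 4 in each saline library, and they were the same 4 events. The log2 difference was therefore 0. They were 1 first exon, 1 last exon and a pair of versions of 1 exon, which covers 81618576 to 81618682 or 81618576 to 81618715. Because the gene is on the minus strand, the extension is at the 5′ side of the exon. The extension adds 11 codons, the difference between Homer2a and Homer2b, and is shown in capitals:
Homer2 exon extension: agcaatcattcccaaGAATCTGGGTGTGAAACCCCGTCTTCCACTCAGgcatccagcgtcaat

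Both versions of that exon were listed in every library, so the catalogues show both variants in each group. Of 4 annotated first exons of Homer2 the catalogues listed 1, whose start at 81706925 is that of a RefSeq promoter entry. A second annotated first exon, with a RefSeq start at 81692965, was in 0 libraries. Both promoter windows, 250 bases before to 50 after the start, are printed from RefSeq on GRCm38.p6 because the first exon of 1 was in all 6 catalogues and that of the other in none, with CG pairs in capitals:
Homer2 upstream promoter, chr7:81706876-81707175: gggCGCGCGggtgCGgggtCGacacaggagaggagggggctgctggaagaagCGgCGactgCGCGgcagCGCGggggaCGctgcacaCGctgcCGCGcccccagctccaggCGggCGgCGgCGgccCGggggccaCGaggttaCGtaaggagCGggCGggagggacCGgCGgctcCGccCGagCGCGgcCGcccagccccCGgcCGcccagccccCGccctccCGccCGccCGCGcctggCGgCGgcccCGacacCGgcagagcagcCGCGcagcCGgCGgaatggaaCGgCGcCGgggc
Homer2 downstream promoter, chr7:81692916-81693215: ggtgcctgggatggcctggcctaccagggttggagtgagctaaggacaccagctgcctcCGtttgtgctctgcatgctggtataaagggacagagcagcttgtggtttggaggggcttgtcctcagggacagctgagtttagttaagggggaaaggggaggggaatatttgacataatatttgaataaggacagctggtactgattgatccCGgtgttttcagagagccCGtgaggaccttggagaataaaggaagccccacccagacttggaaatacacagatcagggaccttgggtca

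The upstream window held 49 CG pairs, and 1.02% of 32851 RefSeq promoter windows of mouse held as many. The downstream window held 3, as many as or fewer than in 76.7% of windows. For Homer1 a window held 26 CG pairs where the annotated splice position, 93305302, was in all 6 libraries. The window whose first exon was in 0 libraries held 7. The listed Homer1 first exon started at 93304799, outside the first of these windows, whose start is at 93303757. The match there is thus by splice position and not by start. The promoter of Homer3 held 19 and that of Shank3 40, and both had their first exon in all 6 libraries. For Shank3 the start of the window, 89499608, lies in no annotated transcript, and the listed first exon started at 89499623. That match is thus by nearness and not by the same start. The CG counts describe the windows, and no test of promoter use was made.

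Homer3, the third family member, spans 11.5 kb at chr8:70282827-70294361 on the plus strand. It had 3, 2 and 2 events in morphine and 2, 3 and 2 in saline. The groups overlapped and the log2 difference was 0 (limma SE 0.22). Its first exon ending at 70283100 was in all 6 libraries. The annotated last exon from 70292975 was in morphine 4 and 6 and in all 3 saline libraries, and morphine 5 listed an unannotated one from 70293984 in its place. Morphine 4 alone listed a joint skip of 2 coding exons of 111 and 87 bases, and saline 2 alone listed a first exon ending at 70285550.

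Among the Shank genes, Shank1 at chr7:44310253-44360572 on the plus strand had the most distinct events over all libraries, 31. Its total was 25, 15 and 7 in morphine 4, 5 and 6 and 12, 13 and 8 in saline 1, 2 and 3. The morphine libraries spread from below the lowest saline library to above the highest. The log2 difference was 0.35 (limma SE 0.52, adjusted p = 1), and without morphine 4 it was -0.06.

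First exons of Shank1 are counted by the splice position at which they end, and different positions can share a start. Those ending at 44310296 and 44312961 were both listed with a start at 44310253. Those ending at 44336203 and 44337518 were both listed with a start at 44335736. The positions are therefore not all separate starts. First exons numbered 7, 5 and 3 in morphine and 5, 7 and 3 in saline, and the means of both groups were 5. The first exons ending at 44310296 and 44312961, both at the 5′ end of the gene, were in all 6 libraries. Another 7 positions, between 3.07 and 32.3 kb from the gene start, were each in 2 or 3 libraries, and every one of them was seen in both groups. Of these 9 positions, 1 used a splice site that is not annotated.

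Shank1 exons of 27 and 24 bases were each skipped in some transcripts of all 6 libraries, 9 and 8 codons that keep the reading frame. An 81-base exon just before the 24-base exon was skipped in morphine 4 and 5 and in 0 saline libraries, and it was chosen for naming after its values were seen. The microexons are shown in capitals:
Shank1 27-base exon: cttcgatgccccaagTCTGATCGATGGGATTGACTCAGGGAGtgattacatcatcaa
Shank1 24-base exon: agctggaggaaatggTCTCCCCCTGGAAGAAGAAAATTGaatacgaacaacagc

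Over all listed genes such constant skipping of very short exons was uncommon. Across the series 2084 single skipped exons were in all 6 libraries, and 181 of them had at most 30 bases. Those 181 lay in 156 genes, 0.979% of all listed genes, whether or not these had a skipped exon. Shank1 and Shank3 were 2 of the 156 genes. Intron retention in Shank1 was 9, 2 and 1 events in morphine and 4, 3 and 0 in saline, and alternative exon ends were 4, 2 and 0 against 0 in each saline library. Both classes overlapped between the groups (exact two-sided permutation p = 0.8 and 0.4). The annotated last exon from 44356620 was in morphine 4 and 6 and in saline 1 and 2. Morphine 5 and saline 3 listed unannotated earlier ends instead, although in both of them that same splice position still appeared beside a skipped exon.

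Shank2 is the longest of the genes, 423 kb at chr7:144001928-144424494 on the plus strand. It had 15, 12 and 14 events in morphine 4, 5 and 6 and 6, 10 and 8 in saline 1, 2 and 3. Every morphine library lay above every saline library, with means of 13.7 ± 1.53 in morphine and 8 ± 2 in saline (SD, n = 3 each). The log2 difference was 0.76 (limma SE 0.21, unadjusted p = 0.0192, adjusted p = 0.905), and the exact two-sided permutation p was 0.1, the smallest that 3 against 3 can give. Morphine lay above saline in this way for 1.64% of all tested genes. Those include genes with few events and 4731 genes whose log2 difference was 0. No such share was computed among genes with as many events as Shank2, so it does not show how unusual the separation is. The adjusted p did not pass the threshold, and leaving out each library in turn gave log2 differences of 0.58 to 0.92.

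The numbers of first and last exons of Shank2 overlapped between the groups. First exons numbered 4, 4 and 3 in morphine and 3, 4 and 4 in saline, and every library had 1 last exon, from 144420559. Exon skipping was 4, 4 and 6 events in morphine and 2, 2 and 0 in saline, again without overlap (exact two-sided permutation p = 0.1), which 1.11% of genes with skipping events showed in the same direction. Intron retention was 2, 1 and 2 in morphine and 0, 1 and 1 in saline. Over all genes with retained introns 4.66% lay above in morphine and 1.31% above in saline. Alternative exon ends were 4, 2 and 2 in morphine and 0, 2 and 2 in saline. Retention and alternative ends of Shank2 overlapped between the groups.

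How the events are counted mattered for Shank2, because the same short exon can enter under several type codes. Counted as spans of start and end whatever the code, the gene had 14, 10 and 12 in morphine and 6, 10 and 8 in saline. The groups met at 10 (log2 difference 0.57), and 1.63% of the 15040 genes tested lay above in morphine in that count. Counted as different skipped exons, it had 4, 4 and 4 in morphine and 3, 3 and 0 in saline. Of the 3411 genes averaging 0.5 or more skipped exons, 0.909% lay above in morphine in that count. That count still took overlapping versions as different exons. They were an unannotated 22-base version of a 9-base exon and, in morphine 5, a 1624-base stretch that holds the 9-base exon. The 3 annotated exons alone were all skipped in every morphine library and in saline 1, so by them the groups overlapped. With annotated events alone, a count chosen after seeing the data, Shank2 had 8, 7 and 8 in morphine and 6, 5 and 5 in saline, without overlap (log2 difference 0.49, limma adjusted p = 0.529). In that count 1.18% of the 14660 genes averaging 0.5 or more annotated events lay above in morphine.

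The skipped exons of Shank2 lie in a pair of clusters on either side of a 131-base exon at 144405330 to 144405460. Before it come exons of 9 and 21 bases that were skipped together or singly, and after it another exon of 21 bases. All 3 are coding and keep the frame, with 3, 7 and 7 codons, and are shown in capitals:
Shank2 9-base exon: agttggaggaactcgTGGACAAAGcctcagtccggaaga
Shank2 upstream 21-base exon: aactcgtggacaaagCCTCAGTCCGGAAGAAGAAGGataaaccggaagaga
Shank2 downstream 21-base exon: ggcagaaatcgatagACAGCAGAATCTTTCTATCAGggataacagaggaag

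The 9-base exon, chr7:144396638-144396646, was skipped in all 3 morphine libraries and in saline 1. The upstream 21-base exon, chr7:144398241-144398261, and the downstream one, chr7:144408056-144408076, were each skipped in all 3 morphine libraries and in saline 1 and 2. Saline 3 listed no skipped exon of Shank2. A 22-base version of the 9-base exon, starting 13 bases earlier and not annotated, was skipped in morphine 4 and 6 and in saline 2. As an alternative exon end it was listed in morphine 4 and 6 and in saline 3.

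Split at the 131-base exon, events other than first and last exons numbered 4, 3 and 7 in morphine and 1, 4 and 3 in saline on the upstream side, where the groups overlapped. On the downstream side they numbered 6, 4 and 3 in morphine and 1, 1 and 0 in saline, without overlap. This split was chosen after the values were seen and is a description, with no share over all genes to set beside it. Part of the downstream number is repetition under different type codes. Morphine 5 listed the same skip of the downstream 21-base exon under more than 1 code. Morphine 4 and 6 did so for the exon with a retained intron given next. Downstream, morphine 4 and 6 listed an exon from 144407121 to 144411868 that holds a retained intron of 2256 or 2229 bases, by type code. Morphine 4 and 5 listed a pair of alternative ends of the exon that begins at 144407121. No saline library listed either.

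**Figure D2:**
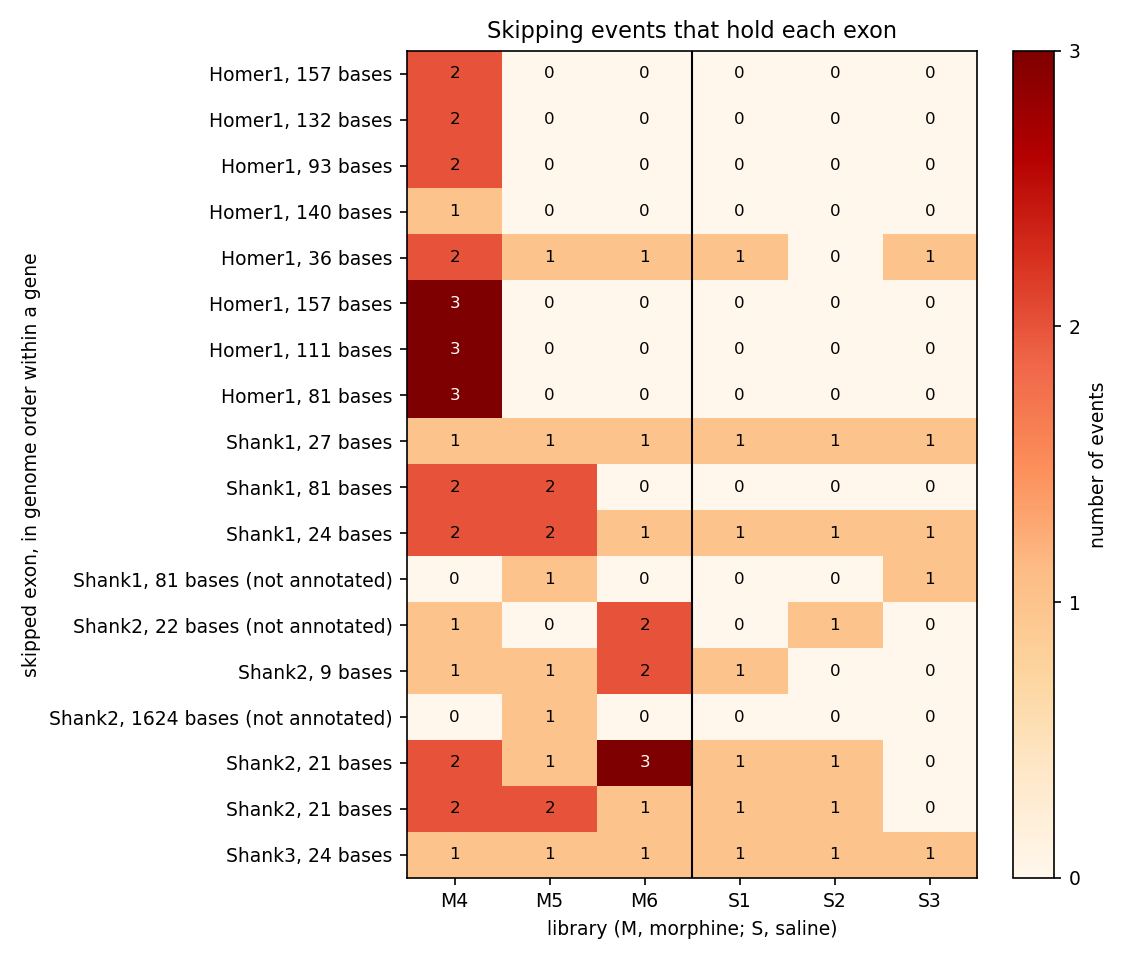
Number of skipping events (colour and printed value) that hold each skipped exon of Homer1, Shank1, Shank2 and Shank3 (y axis, by length) in each library (x axis). The 27-base and 24-base exons of Shank1 and the 24-base exon of Shank3 have a value in all 6 libraries, the Homer1 exons other than the 36-base one have values in morphine 4 alone, and saline 3 is at 0 for every Shank2 exon.

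First exons of Shank2 fell at 6 positions. The one ending at 144175956, 174 kb into the gene, was in all 6 libraries. The annotated one ending at 144285137 was in all 3 morphine libraries and in saline 1 and 3. An unannotated one ending at 144239093 was in all 3 morphine libraries and in saline 2 and 3. The first exon at the gene's own 5′ end, ending at 144002017, was in 0 morphine libraries and in saline 1 and 2. Another one ending at 144081919 was in saline 3 alone, and an unannotated one ending at 144133174 was in morphine 4 and 5 and saline 2. Starts in the first 100 kb of the gene were thus listed in saline libraries alone, 1 in each, which is a description of positions chosen after their values were seen. No share over all genes was computed for such a cut.

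Shank3, at chr15:89499623-89560261 on the plus strand, had 7, 6 and 5 events in morphine 4, 5 and 6 and 13, 8 and 6 in saline 1, 2 and 3. The groups overlapped, since morphine 4 lay above saline 3. The log2 difference was -0.49 (limma SE 0.32, adjusted p = 0.905; exact two-sided permutation p = 0.3). With annotated events alone it was 0.03. The events by which the totals differed were mostly retained introns, 1, 0 and 0 in morphine and 5, 2 and 0 in saline, with 2 alternative exon ends in saline 1 alone. First exons numbered 4, 4 and 3 in both groups.

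Shank3 has a first exon at its 5′ end, ending at 89499919, and an internal one that starts at 89532890 and ends at 89533454, 33.8 kb into the gene. Both were in all 6 libraries. The other 5 listed first exons were each in 1 to 3 libraries, and the annotated ones ending at 89524219, 89524581 and 89531418 were in 0. Of the 5, those ending at 89500418, 89501475 and 89503228 were also listed with the start of the 5′ one, 89499623. The annotated last exon from 89557735 was in all 3 morphine libraries and in saline 1. Saline 2 and saline 3 listed last exons on the opposite strand instead, from 89548274 in saline 2 and from 89521383 and 89522974 in saline 3.

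**Figure D3:**
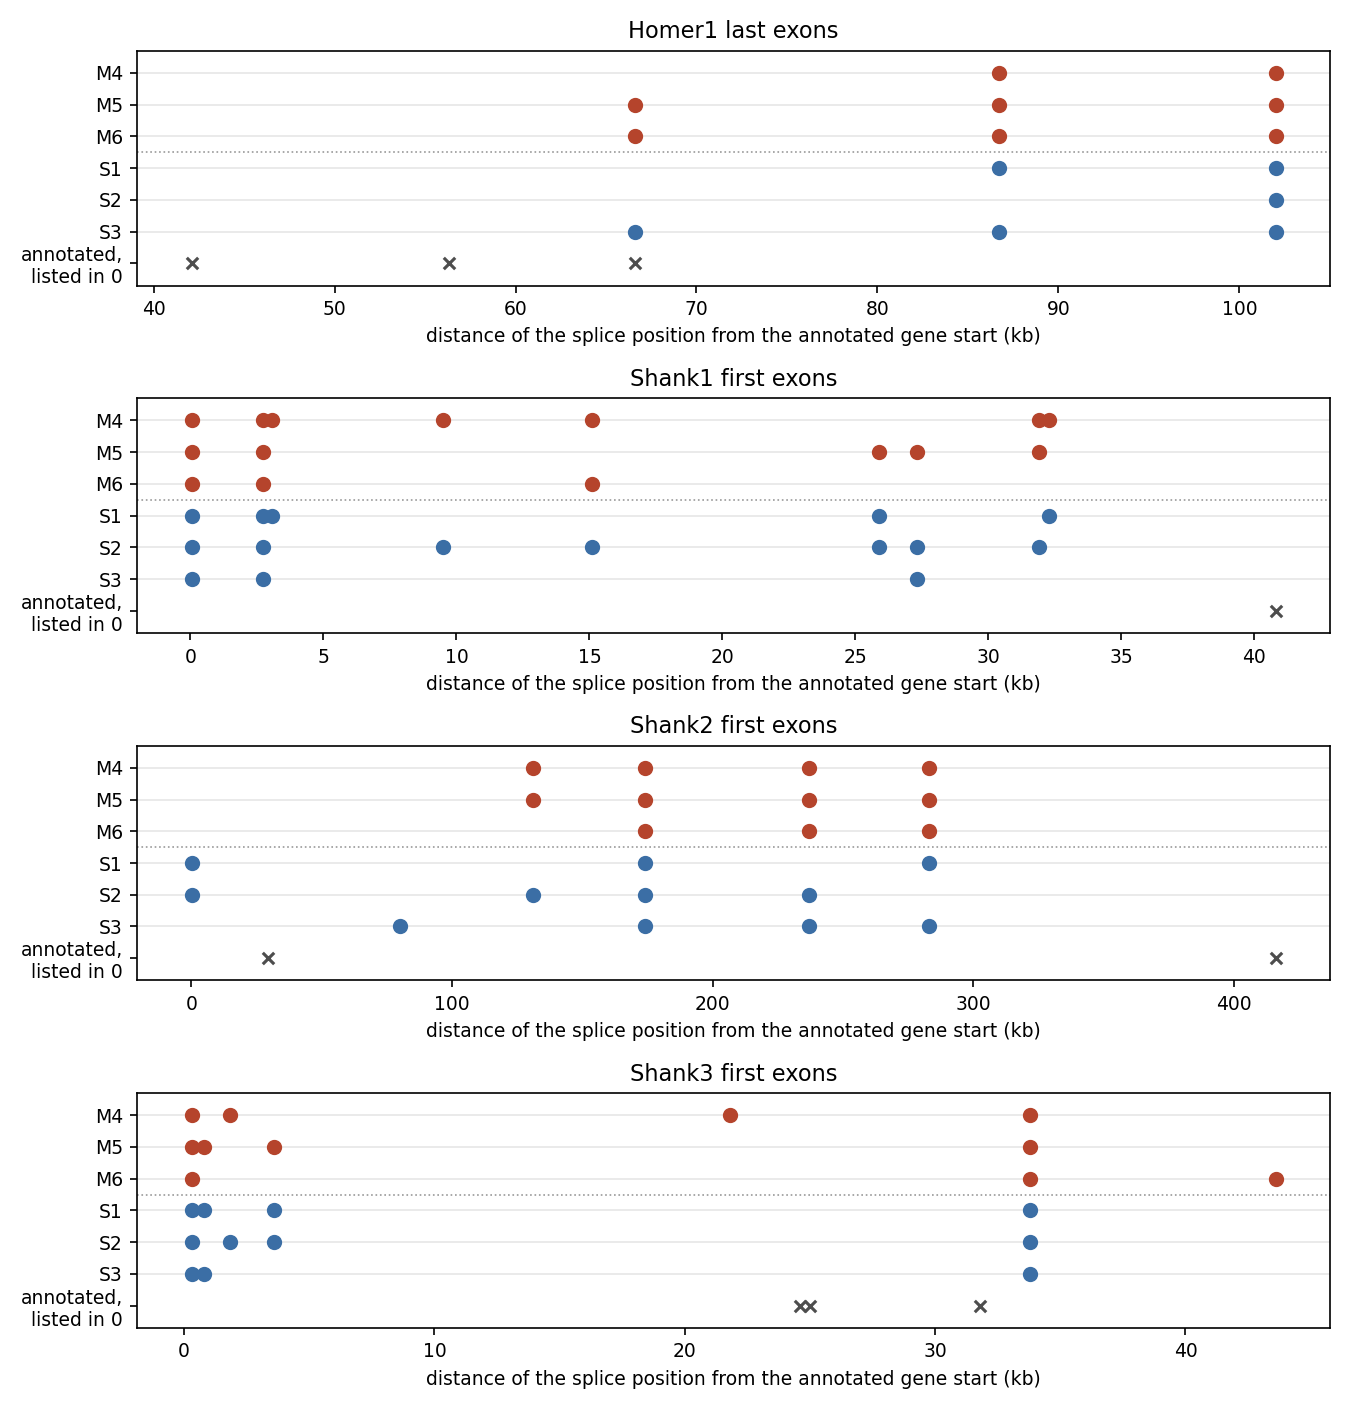
Splice positions of the Homer1 last exons and of the Shank1, Shank2 and Shank3 first exons (x axis, kb from the annotated gene start), with a point in each morphine (red) and saline (blue) library that lists them and a cross for annotated positions in 0 libraries. The 3′-most Homer1 end at 102 kb, the pair of 5′ first exons of Shank1, the Shank2 first exon at 174 kb and the Shank3 first exons at 0.296 and 33.8 kb are filled in all 6 libraries.

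A 24-base exon of Shank3 at chr15:89538015-89538038 was skipped in some transcripts of all 6 libraries, in 1 event each. It follows the 81-base exon at which the internal first exon ends. The matching place in Shank1 holds its 24-base exon and in Shank2 its 9-base and upstream 21-base exons. It is printed for comparison with those above, with the exon in capitals:
Shank3 24-base exon: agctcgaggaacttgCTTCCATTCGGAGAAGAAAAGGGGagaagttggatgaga

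The 81-base exons before these microexons had 65 identical bases between Shank2 and Shank3, 60 between Shank1 and Shank2 and 58 between Shank1 and Shank3. In pairwise global alignments the microexons had 16 identical bases between Shank2 and Shank3, 16 between Shank1 and Shank3 and 15 between Shank1 and Shank2. All 3 Shank genes thus had a frame-keeping microexon skipped at this place in both groups. In Shank1 and Shank3 it was listed in every library, and in Shank2 in 5 of 6.

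The genes whose event numbers were most alike were found by the smallest sum of absolute differences over the 6 libraries, among 3032 genes that averaged 5 or more events. For Homer1 these were Pcyt2 (sum 3) and Phtf2 (sum 5), and for Shank1 Zfp384 (sum 10) and Vps54 (sum 12). For Shank2 they were Gnas and Ldlrad4 (sum 8 each). For Shank3 they were Nr2c2 (sum 3) and Btrc (sum 4, which 4 genes shared).

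Binding partners of Homer and Shank were read from a list of 50 genes, all of them tested. Limma called 0 of the 50 at an adjusted p under 0.05 and 1 at an unadjusted p under 0.05. Morphine lay above saline without overlap in 2 of them, saline above morphine in 0, and 48 overlapped. Over all tested genes limma called 0.638%, and 1.64% lay above in morphine and 1.43% above in saline. The median log2 difference was 0, as over all tested genes.

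Dlgap4, of the family that joins Shank to PSD-95, had 10, 11 and 10 events in morphine and 8, 9 and 9 in saline. Its log2 difference was 0.24 (limma SE 0.07, adjusted p = 0.905). Cacna1d, an L-type calcium channel that binds Shank, had 23, 24 and 26 events in morphine and 19, 9 and 19 in saline. Its log2 difference was 0.69 (limma SE 0.33, adjusted p = 0.905). Neither passed the threshold.

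The other named partners overlapped between the groups. Grm5, the group 1 metabotropic receptor bound by Homer, had 3, 3 and 3 events in morphine and 3, 5 and 4 in saline (log2 difference -0.34). Itpr1, the calcium release channel, had 3, 2 and 2 in morphine and 5, 3 and 3 in saline (log2 difference -0.54). Dlgap3 had 5, 5 and 5 in morphine and 5, 6 and 5 in saline, and Dlg4, which encodes PSD-95, had 6, 8 and 8 in morphine and 7, 8 and 8 in saline. By role, the median log2 difference was -0.13 for the 11 metabotropic receptors and calcium proteins, 0.08 for the 6 other Homer ligands and -0.07 for the 9 scaffolds. It was 0.19 for the 8 Shank ligands on actin and small GTPases, -0.08 for the 10 at the membrane and -0.15 for the 6 others.

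**Figure D4:**
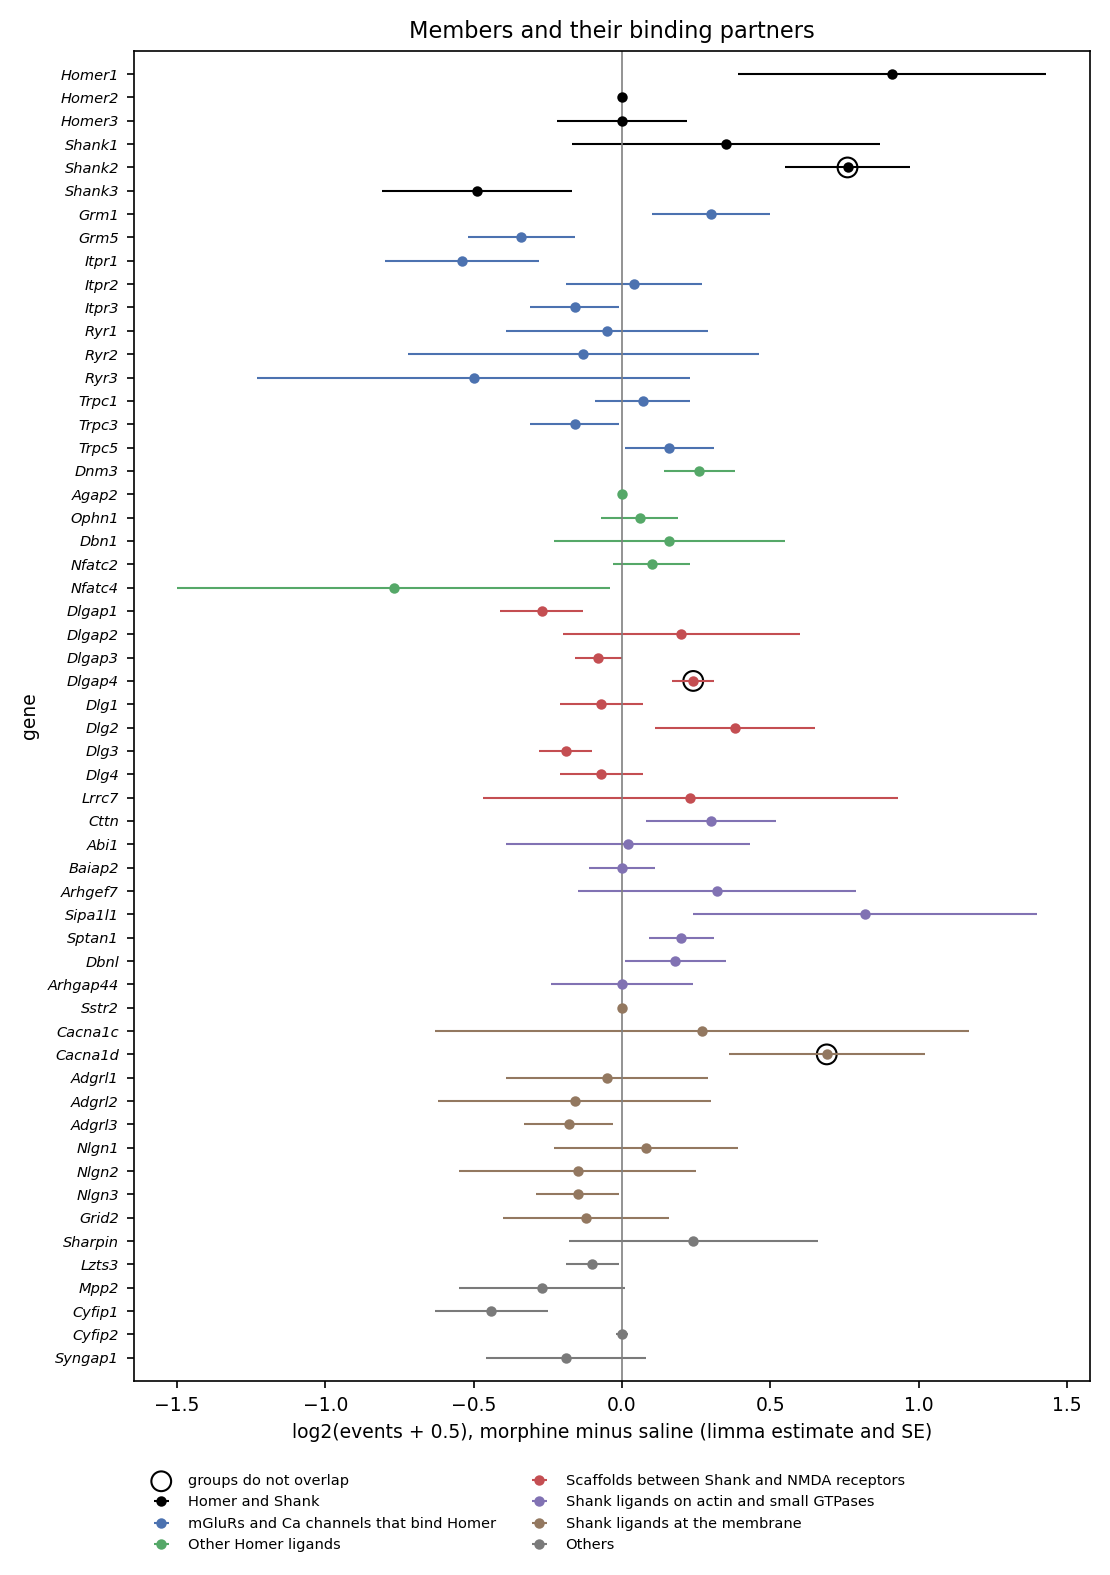
Difference in log2(events + 0.5), morphine minus saline, with its limma SE (x axis) for the 6 Homer and Shank genes and their 50 partners (y axis, coloured by role). Circled points are the genes whose groups did not overlap, Shank2, Dlgap4 and Cacna1d, all of them to the right of 0.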

How the data were processed

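Each of the 6 deposited files lists alternative transcription and splicing events of 1 library. Which assembler, event caller, build and annotation made them is not given in the sources used here. A column that the authors headed fpkm holds whole numbers from -24 to 0; its meaning, and any normalization, is unknown, so neither expression nor the FPKM test planned for it was used. The other deposited values are event positions.

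Events were distinct by type, splice pattern and strand, without the OFF codes that repeat an event for its partner transcript. GENCODE M21 on GRCm38 gave symbols for 15833 of 15939 IDs, and 63.6% of events had its exon boundaries. Exon sequences came from its transcripts, promoters from RefSeq (4 of the 6 genes matched; Shank1 and Shank2 did not). Limma 3.58.1 in R 4.3.3 (lmFit, eBayes with trend, Benjamini-Hochberg) was fitted to log2(events + 0.5) for the 15040 genes averaging 0.5 or more events. Exact two-sided permutation tests were run beside it. The fit was first run on counts drawn at random around each gene's mean. Event numbers such as those of Homer2 were the same in every library, so that run does not show how the fit behaves on them. Library pairs shared 46.3 to 49.6% of events, so none was a duplicate. Without depth no counting interval was computed.

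Members, lists and tests were chosen with earlier results of these data known. All members were named, with partners that were called or did not overlap plus Grm5, Dlgap3, Dlg4 and Itpr1, and single events in all 6 libraries or marking an end. Other named events were chosen after their values were seen. Alternatives changed the pseudocount, filter, scaling, trend, event types, event definition and libraries.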

Additional observations from a re-analysis of the deposited data

How the results depend on the processing

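Of 289 alternative values, 271 were counted as unchanged, 4 reversed and 14 counts moved by over 1.5 times. For a log2 difference, unchanged meant that its sign did not reverse and its side of the threshold stayed the same. A fall to 0 was therefore counted as unchanged, as for Shank2, from 0.76 to 0 with first and last exons alone. A change in overlap was not counted either. The 271 include the values of Homer2, which hardly vary, and no member passed the threshold in any setting. The log2 difference of Shank1 was -0.10 with first and last exons alone and -0.06 without morphine 4, and its intron retention difference was -0.83 to 3.17 events with each library left out, the lowest without morphine 4. That of Shank3 was 0.03 with annotated events alone, an alternative chosen after seeing the data. The cause was not tested. Leaving out each library in turn gave log2 differences of 0.48 to 1.15 for Homer1, -0.06 to 0.82 for Shank1, 0.58 to 0.92 for Shank2 and -0.73 to -0.21 for Shank3. Over all genes, limma calls were 250 to 285 with a library left out, against 96 with all 6, and why they rose was not tested. Genes whose groups do not overlap numbered 961 to 1102 with a library left out (fewer samples overlap less often), 818 with equal-total scaling and 256 with first and last exons alone, against 462. With equal-total scaling Homer1 did not overlap either, with morphine above. There its tie at 5 events was broken by total factors of 0.996 and 0.993 for morphine 5 and 6 and 1.006 for saline 3. Median-of-ratios factors were 1 for every library. With splice positions within 10 bases counted as the same, the number of positions stayed at 3 for Homer1 last exons and at 9, 6 and 7 for Shank1, Shank2 and Shank3 first exons.

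No paired analysis was possible because saline samples carry the numbers 1 to 3 and morphine samples 4 to 6, so the groups share none. Event numbers are small whole numbers, depth is unknown and each group has 3 libraries, which limits what a difference in events can show.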
